A study of Mus musculus with 6 samples.

Results

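The heat-shock proteins and their co-chaperones were examined as a group of 45 genes in LSC GFP+ and LSC GFP- cells of the neonatal mouse prostate. The members were taken by name: the HSP70, HSP110, HSP90, small heat-shock protein, mitochondrial chaperonin and DnaJ families, the BAG proteins, the HSP90 co-chaperones Stip1 and Chordc1, and the heat-shock factors Hsf1 and Hsf2. They are 45 of the 36163 gene and transcript names on the array. The array held 64 probes under the symbol of 44 members, Hspa1b being the exception, and 41 members had at least 1 probe bright enough to be compared.

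RNA was measured on 6 single-colour arrays, 3 for LSC GFP+ and 3 for LSC GFP- cells, each from a separate sample of sorted cells. All samples came from untreated male Tg 11.5kb-GFP mice on the FVB/N background, 6 days old, so both populations carry the same transgene. In this line enhanced green fluorescent protein (GFP) is driven by the s-SHIP promoter, which marks putative stem cells but is also active in vascular smooth muscle cells. LSC stands for cells that lack blood, endothelial and red-cell lineage markers (Lin-) and carry Sca-1 and the integrin CD49f, the basal and stem cell fraction, which was then divided by GFP fluorescence after enzymatic digestion of the tissue. How many mice went into a sample is not given in the sources used here, so p values measure the spread between these samples.

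Heat-shock proteins are molecular chaperones: they bind unfolded or partly folded proteins, keep them from aggregating and help them to fold. HSP70 proteins work through cycles of ATP hydrolysis that DnaJ proteins (also called HSP40) start and that HSP110 and BAG proteins, as nucleotide exchange factors, complete. HSP90 proteins take over late folding steps of kinases and steroid receptors, the androgen receptor of the prostate among them. Small heat-shock proteins hold unfolded proteins without ATP, and the chaperonin of HSP60 and HSP10 folds proteins inside mitochondria. The cytosolic heat-inducible genes are switched on by heat-shock factor 1, which binds heat-shock elements made of inverted GAA units, whereas chaperones of the endoplasmic reticulum answer to unfolded proteins there through another promoter element. Dissociation and sorting of tissue are known to induce heat-inducible genes as well as immediate-early genes.

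The sequences of the members described in most detail are shown first. The probe named for Hspa1a, whose RefSeq accessions are those of both Hspa1a and Hspa1b, lies at chr17:35107117-35107176 of mm9 on the minus strand and is printed because the signal of these 2 genes cannot be told apart on it.

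Hspa1a and Hspa1b probe: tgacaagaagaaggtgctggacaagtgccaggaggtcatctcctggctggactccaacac

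Of the 45 members, 37 had at least 1 promoter window from RefSeq (GRCm38.p6), and the windows reach from 250 bases before to 50 bases after a transcription start. The 250 bases before the start are printed for the 4 members that were higher in LSC GFP+ cells at the unadjusted threshold, Hspa1a, Hsph1, Dnajb4 and Hspb3, for Hspa1b as the copy of Hspa1a, and for Hspd1 and Hspa5, which did not pass, as examples of a longer heat-shock element and of the endoplasmic reticulum element. Other members that hold an element, Hspb1 and Dnaja1 among them, are not printed. For members with several windows, 1 with an element was taken. Capitals mark the motifs that were searched, GAANNTTC and TTCNNGAA, each of which reads the same on both strands and makes a heat-shock element of 2 units, or, in Hspa5, CCAAT followed after 9 bases by CCACG. The windows are Hspa1a at chr17:34972157-34972406, minus strand, Hspa1b at chr17:34959239-34959488, minus strand, Hsph1 at chr5:149636337-149636586, minus strand, Dnajb4 at chr3:152193846-152194095, minus strand, Hspb3 at chr13:113663677-113663926, minus strand, Hspd1 at chr1:55087933-55088182, minus strand and Hspa5 at chr2:34771840-34772089, plus strand.

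Hspa1a: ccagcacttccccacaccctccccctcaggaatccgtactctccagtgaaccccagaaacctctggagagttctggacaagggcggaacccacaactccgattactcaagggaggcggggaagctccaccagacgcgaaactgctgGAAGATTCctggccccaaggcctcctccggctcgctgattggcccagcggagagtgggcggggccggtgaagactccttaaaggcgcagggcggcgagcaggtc

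Hspa1b: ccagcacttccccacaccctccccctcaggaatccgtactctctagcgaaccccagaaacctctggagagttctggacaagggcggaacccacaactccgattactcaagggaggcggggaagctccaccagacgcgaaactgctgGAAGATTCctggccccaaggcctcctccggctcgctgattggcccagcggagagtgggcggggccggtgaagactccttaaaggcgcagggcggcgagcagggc

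Hsph1: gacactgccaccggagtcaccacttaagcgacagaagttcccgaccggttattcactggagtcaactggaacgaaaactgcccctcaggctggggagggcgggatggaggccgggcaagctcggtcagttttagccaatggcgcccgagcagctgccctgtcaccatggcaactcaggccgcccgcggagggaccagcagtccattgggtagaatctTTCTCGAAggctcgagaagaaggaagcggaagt

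Dnajb4: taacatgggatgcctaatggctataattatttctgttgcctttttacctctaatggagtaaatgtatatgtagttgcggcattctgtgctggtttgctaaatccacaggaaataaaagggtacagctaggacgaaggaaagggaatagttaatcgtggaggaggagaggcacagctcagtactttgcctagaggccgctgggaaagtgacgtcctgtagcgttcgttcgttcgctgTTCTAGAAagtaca

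Hspb3: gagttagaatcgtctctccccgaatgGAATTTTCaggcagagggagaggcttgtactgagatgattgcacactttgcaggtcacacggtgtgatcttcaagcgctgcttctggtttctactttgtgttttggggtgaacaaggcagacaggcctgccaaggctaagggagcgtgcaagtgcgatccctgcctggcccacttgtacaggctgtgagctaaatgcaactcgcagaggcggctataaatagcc

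Hspd1: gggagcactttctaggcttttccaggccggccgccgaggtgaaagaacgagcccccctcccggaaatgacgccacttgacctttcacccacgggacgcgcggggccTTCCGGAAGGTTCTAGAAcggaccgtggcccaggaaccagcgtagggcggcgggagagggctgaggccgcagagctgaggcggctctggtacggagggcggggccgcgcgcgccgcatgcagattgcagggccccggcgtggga

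Hspa5: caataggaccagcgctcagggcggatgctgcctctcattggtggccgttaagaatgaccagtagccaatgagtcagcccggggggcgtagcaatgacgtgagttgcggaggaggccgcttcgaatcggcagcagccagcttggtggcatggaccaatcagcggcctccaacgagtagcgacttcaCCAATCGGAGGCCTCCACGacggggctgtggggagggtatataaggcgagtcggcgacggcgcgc

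The Hspa1a and Hspa1b windows are alike at 247 of 250 bases and hold the same element, which ends 96 bases before the start. In Hsph1 the element ends 25 bases before the start, in Dnajb4 6 and in Hspb3 216. Hspd1 holds overlapping elements that make up a run of further units, and Hspe1, which is transcribed the other way from the same stretch of DNA, shares them. A 2-unit element was present in a window of 15 of the 37 members (40.5%), against 17% of the 27025 genes with a window. With 1 more unit after 2 further bases, giving 3 units, it was present in 5 members (13.5%), which were Hsph1, Hspd1, Hspe1, Dnajb6 and Chordc1, against 0.662% of genes; in Hsph1 this longer match lies outside the bases printed. The endoplasmic reticulum element was found in Hspa5, Hsp90b1 and Dnajc3, 8.11% of members against 0.137% of genes.

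The populations were compared with limma's moderated test over 37008 probes, with Benjamini-Hochberg adjustment over all of them. The blocked fit is the same test with the replicate number added, so that samples of equal number are compared with each other. A level is the log2 signal relative to the 75th percentile of the array, so that 0 is that percentile, and a difference is the level in LSC GFP+ minus that in LSC GFP- cells. Each gene is given at its brightest compared probe, and levels of different probes cannot be set against each other. At an unadjusted p under 0.05, the threshold of the study, 4 of the 41 members (9.76%) were higher in LSC GFP+ cells, Hspa1a, Hsph1, Hspb3 and Dnajb4, against 3.37% of all probes. Hspb6 and Hspb7, 2 of 41 (4.88%), were lower, against 4.53% of all probes. The paper's lists of up- and down-regulated genes also set a minimum fold change, which was not applied here. The number of higher members was 2 without LSC GFP- replicate 2 and 9 without LSC GFP- replicate 3, and that of lower members was 0 or 1 when any array but LSC GFP+ replicate 1 was left out. Without LSC GFP+ replicate 1 the 2 lower members were Hspb7 and Hspa12b, and Hspb6 missed the threshold. No member passed after adjustment, the lowest adjusted p being 0.185 for Hspb3, and 1 probe of all, 0.0027%, did so. The 3 samples of each population did not overlap in 7 members that were higher (17.1%), against 6.61% of all probes, and in 2 that were lower (4.88%), against 5.65%.

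**Figure D1:**
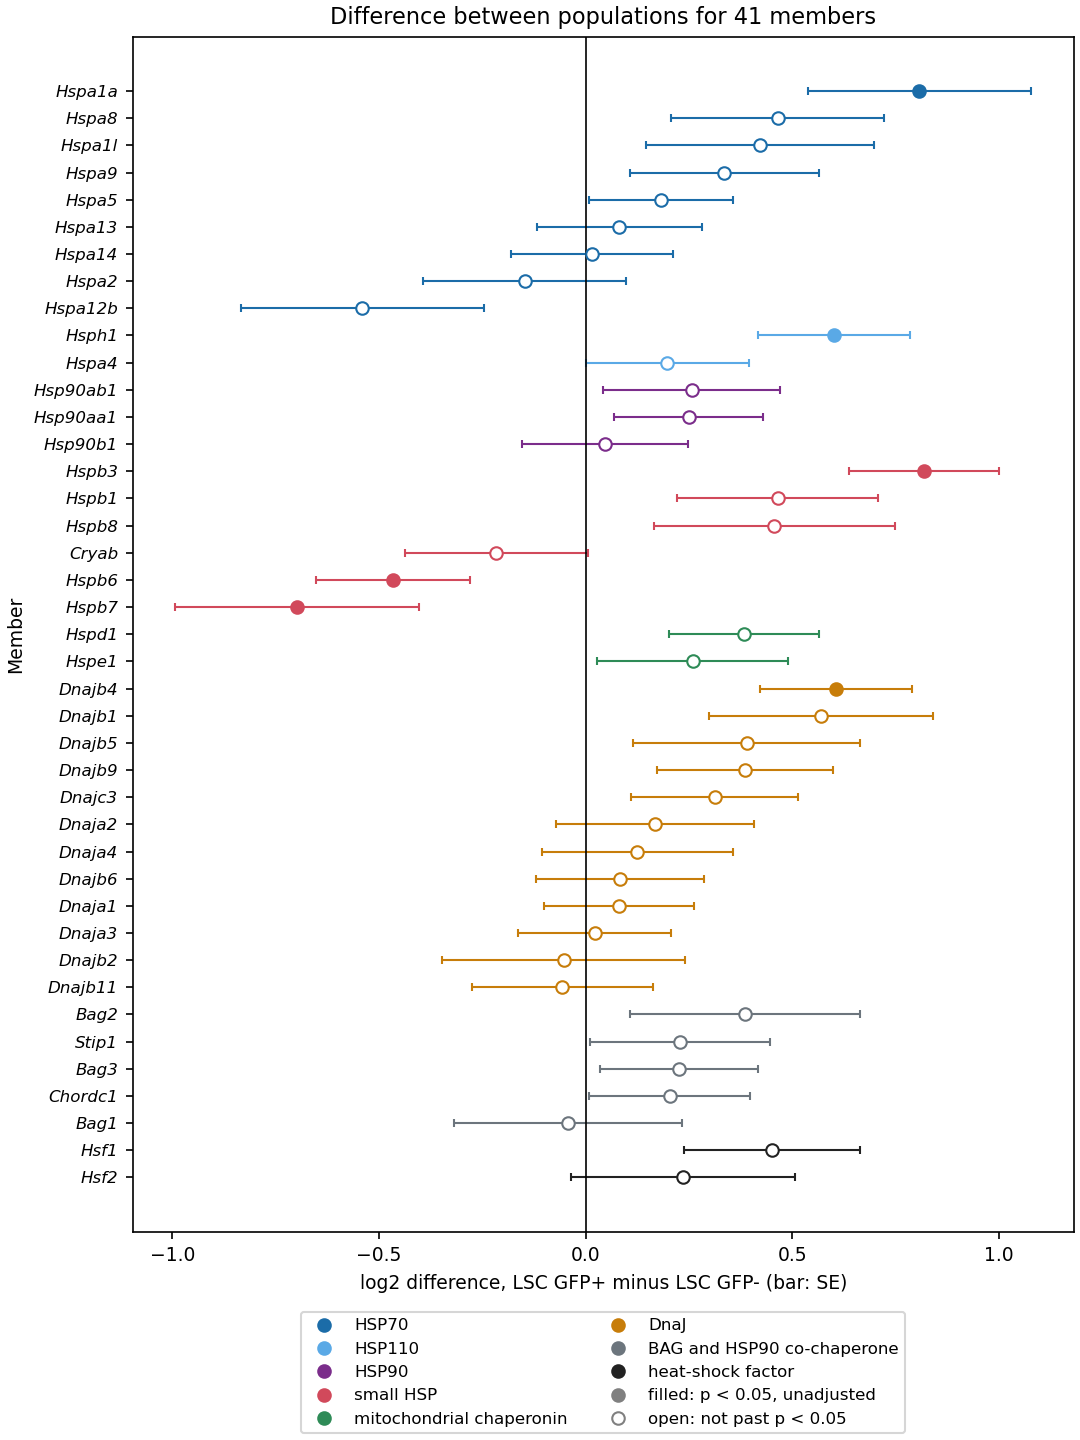
Difference in log2 signal, LSC GFP+ minus LSC GFP- cells, for the 41 compared members, one row per gene, coloured by class; points are the difference of the means of 3 arrays each, bars the standard error from limma, and filled points passed an unadjusted p of 0.05. Of the 41 points, 33 lie to the right of 0, and the filled points are Hspa1a, Hsph1, Hspb3 and Dnajb4 on the right and Hspb6 and Hspb7 on the left.

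Most members lay on the side of LSC GFP+ cells without passing the test. The difference was above 0 for 33 of 41 members (80.5%), against 49.4% of all probes, and the median difference was 0.23 over the members and -0.0043 over all probes. Bright probes as a whole leaned the same way under this scaling: 30 of the 41 members were brighter than the 75th percentile, and of the 13609 probes at that brightness 57.1% were above 0, with a median of 0.043. Under quantile normalization, where 51.6% of bright probes were above 0, 31 of 41 members (75.6%) still were, with a median of 0.18. The share was not even across the samples. Between the samples numbered 1, 24 of 41 members (58.5%) were above 0, against 61.3% of all probes and 59.8% of bright probes. Between those numbered 2, 36 (87.8%) were, against 44.2% of all and 60.9% of bright probes. Between those numbered 3, 29 (70.7%) were, against 50.3% of all and 55.9% of bright probes.

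**Figure D2:**
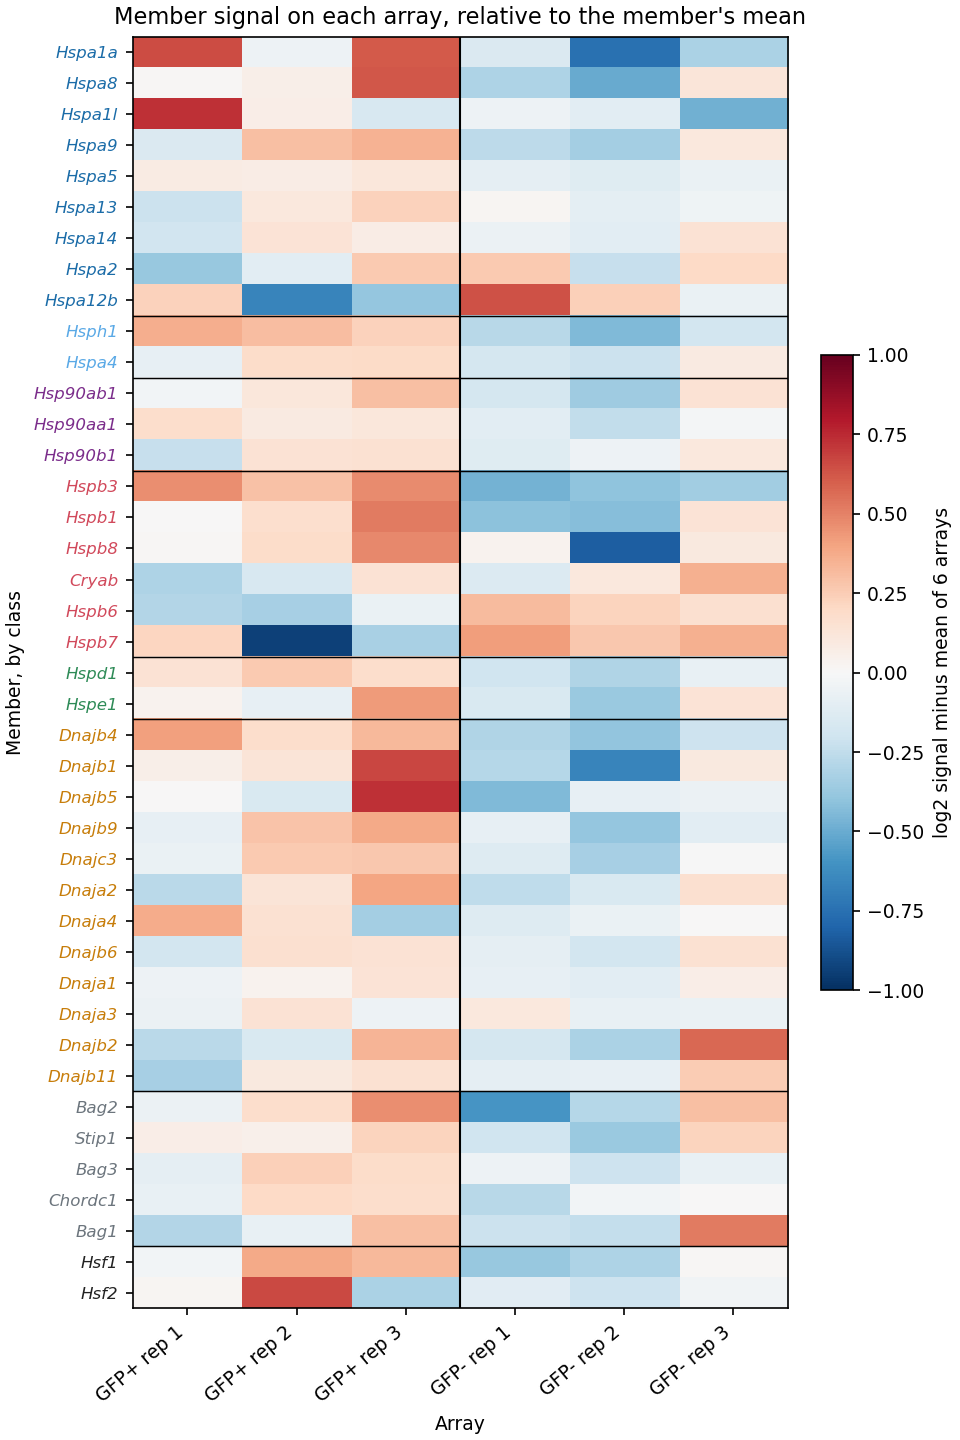
Level of the 41 compared members on each of the 6 arrays, shown as the log2 signal minus the mean of that gene over the 6 arrays; rows are genes ordered by class and by difference, columns are arrays, red is above and blue below the gene's mean. LSC GFP- replicate 2 is the bluest column, both arrays numbered 3 tend to red, and Hspb6, Hspb7 and Hspa12b run the other way from most rows.

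The HSP70 genes had a median difference of 0.18 over 9 compared members, of which 7 were above 0, and of 0.11 under quantile normalization. Hspa1a, the heat-inducible HSP70 of the cytosol, was read by the probe shared with its copy Hspa1b. Its levels were 2.26, 1.56 and 2.22 in LSC GFP+ replicates 1, 2 and 3 and 1.46, 0.86 and 1.29 in LSC GFP- replicates 1, 2 and 3. The lowest LSC GFP+ sample was just above the highest LSC GFP- sample, and replicate 2 was lowest in both populations. The signal was 1.75-fold higher in LSC GFP+ cells (difference 0.81 ± 0.27, SE, n = 3 per population, adjusted p = 0.43), and the pairs of equal number differed by 0.80, 0.69 and 0.93. The unadjusted threshold was missed when LSC GFP+ replicate 1, when LSC GFP- replicate 2 or when LSC GFP+ replicate 3 was left out, with differences of 0.68, 0.64 and 0.70.

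Hspa8, the constitutive HSP70 of the cytosol (Hsc70), stood at 6.09, 6.13 and 6.69 in LSC GFP+ and 5.76, 5.57 and 6.19 in LSC GFP- replicates 1, 2 and 3. The populations overlapped, because LSC GFP- replicate 3 was above LSC GFP+ replicates 1 and 2, while each LSC GFP+ sample was above the LSC GFP- sample of its number. The difference was 0.46 ± 0.26 (SE, n = 3 per population, adjusted p = 0.799), and it passed the unadjusted threshold in the blocked fit (adjusted p = 0.235) and without LSC GFP- replicate 3. The other probes of Hspa8 differed by 0.20 and 0.32, and neither passed.

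Hspa5 (BiP), the HSP70 of the endoplasmic reticulum, had the tightest levels among the members described by sample. They were 4.60, 4.60 and 4.64 in LSC GFP+ and 4.44, 4.41 and 4.46 in LSC GFP- replicates 1, 2 and 3. The populations did not overlap although the difference was only 0.18 ± 0.17 (SE, n = 3 per population) and did not pass limma's test (adjusted p = 0.988), which borrows its spread from all probes. Hspa5 passed the methods' t-test, which uses only the spread of the gene itself, as did Hsp90aa1 and Hspd1.

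Of the other HSP70 genes, Hspa9, the mitochondrial member, differed by 0.34 (adjusted p = 0.889) and Hspa1l, a close relative of Hspa1a, by 0.42 (adjusted p = 0.871). Hspa13 and Hspa14 differed by 0.08 and 0.02. Hspa2, best known from the testis, differed by -0.15. Hspa12b, a distant HSP70 relative of endothelial cells, differed by -0.54 and was lower in LSC GFP+ cells within each pair (adjusted p = 0.784), and it passed the unadjusted threshold in the blocked fit (adjusted p = 0.261) and without LSC GFP+ replicate 1. Hspa12a was above background on 1 of the 6 arrays and was not compared.

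In the HSP110 family, whose members discharge ADP from HSP70, Hsph1 was higher in LSC GFP+ cells. Its levels were 4.61, 4.56 and 4.48 in LSC GFP+ and 3.97, 3.81 and 4.07 in LSC GFP- replicates 1, 2 and 3. The spread within each population was small beside the gap, and no sample overlapped. The signal was 1.52-fold higher (difference 0.60 ± 0.18, SE, n = 3 per population, adjusted p = 0.361). The second Hsph1 probe, which was dimmer, gave a difference of 0.77 ± 0.20 (SE, n = 3 per population, adjusted p = 0.263) and passed the unadjusted threshold as well. Without LSC GFP- replicate 2 the brighter probe missed the threshold, at a difference of 0.53. Hspa4 (Apg2), constitutive in most cells, differed by 0.20, and its 3 probes differed in sign. Hspa4l was above background on 1 array.

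None of the 3 HSP90 genes passed. Hsp90aa1, the heat-inducible cytosolic HSP90, stood at 3.45, 3.36 and 3.39 in LSC GFP+ and 3.17, 3.03 and 3.25 in LSC GFP- replicates 1, 2 and 3, without overlap, with a difference of 0.25 ± 0.18 (SE, n = 3 per population, adjusted p = 0.916). Hsp90ab1, the constitutive form, stood at 7.42, 7.57 and 7.76 and at 7.28, 7.10 and 7.60, with a difference of 0.26 ± 0.21 (SE, n = 3 per population, adjusted p = 0.963). LSC GFP- replicate 3 was above LSC GFP+ replicates 1 and 2 for Hsp90ab1. Hsp90b1 (Grp94), the HSP90 of the endoplasmic reticulum, differed by 0.05.

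Differences among the small heat-shock proteins ran from -0.70 to 0.82, and this class held both members that were lower. Hspb3, a muscle member of the family, stood at -2.88, -3.05 and -2.87 in LSC GFP+ and -3.82, -3.75 and -3.69 in LSC GFP- replicates 1, 2 and 3. The samples of each population lay close together, far below the 75th percentile but above background on all 6 arrays. The signal was 1.76-fold higher in LSC GFP+ cells (difference 0.82 ± 0.18, SE, n = 3 per population, adjusted p = 0.185), the smallest adjusted p of the members. It passed under all 17 alternatives, with a difference between 0.31 under normexp background correction and 0.89. Hspb1 (Hsp27), which is heat-inducible and abundant in epithelia, stood at 3.82, 3.98 and 4.34 and at 3.40, 3.39 and 3.96. The populations overlapped through LSC GFP- replicate 3, and the difference of 0.46 ± 0.24 (SE, n = 3 per population, adjusted p = 0.763) passed the unadjusted threshold in the blocked fit (adjusted p = 0.231), with normexp background correction and without LSC GFP- replicate 3. Hspb8 (Hsp22), the partner of Bag3, differed by 0.46 (adjusted p = 0.862), and its lowest sample was LSC GFP- replicate 2.

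Hspb6 (Hsp20), known from smooth muscle, was lower in LSC GFP+ cells. Its levels were -0.49, -0.53 and -0.26 in LSC GFP+ and 0.12, 0.03 and -0.03 in LSC GFP- replicates 1, 2 and 3, without overlap. The signal was 1.38-fold higher in LSC GFP- cells (difference -0.47 ± 0.19, SE, n = 3 per population, adjusted p = 0.573). It passed under 10 of 17 alternatives. Those under which it did not were scaling by the array median (difference -0.40), no filter on dim probes, and leaving out any array other than LSC GFP+ replicate 3 (differences from -0.42 to -0.50).

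Hspb7 (cvHsp), known from heart and vessels, was dim, at -3.14, -4.29 and -3.68 in LSC GFP+ and -2.94, -3.08 and -3.00 in LSC GFP- replicates 1, 2 and 3. It was above background on 2 of 3 LSC GFP+ arrays and on all 3 LSC GFP- arrays, so that it entered the comparison only through the population in which it was brighter. Its level in LSC GFP+ replicate 2 lay just below -4.27, the lowest level of a probe marked above background on that array, and is not a firm measurement. The difference was -0.70 ± 0.29 (SE, n = 3 per population, adjusted p = 0.618). It passed the unadjusted threshold under 6 of 16 alternatives and was not compared where all 6 arrays had to be above background, and without LSC GFP+ replicate 2, its lowest sample, the difference was -0.40. Cryab (alphaB-crystallin), another small heat-shock protein of muscle, differed by -0.22 (adjusted p = 0.996) at its brighter probe and by -0.80 (adjusted p = 0.376) at its dimmer one, which passed the unadjusted threshold. Hspb2, the neighbour of Cryab, was above background on no array.

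The members that were lower are described beside the levels of smooth muscle genes, since bulk samples cannot separate fewer cells of a type from less RNA per cell. Of 14 smooth muscle markers, 13 were compared, 11 were lower in LSC GFP+ cells and none was higher, with a median difference of -1.69. Their summed linear signal, in units of the 75th percentile, lay between 16.5 and 25.4 on LSC GFP+ arrays and between 45 and 90.7 on LSC GFP- arrays. Of 12 stromal markers, 5 of 10 compared were lower and 2 higher, and their sum lay between 25.3 and 32.2 and between 24.8 and 66.3. The defining markers without a compared probe were Lmod1 of the smooth muscle and Postn and Dpt of the stromal list. Of 10 endothelial markers 7 were compared and Vwf was lower (difference -0.82, adjusted p = 0.297). Cdh5, Emcn and Tie1 had no compared probe. Without LSC GFP- replicate 2, 8 stromal markers were lower, and without LSC GFP+ or LSC GFP- replicate 1, 2 endothelial markers were. The Lin- gate removes endothelial cells, and the CD49f+ gate is meant to leave out the stromal fraction. The paper gives that fraction as Sca-1+ and CD49f-. On vascular smooth muscle cells with high GFP, the paper saw little or no Sca-1 or CD49f. It also reports that the sorted LSC fraction held epithelial cells only, by a surface marker. Hspb3, a muscle member of the family as well, went the other way, with a difference of 0.82. The part of smooth muscle, stromal or endothelial cells in the signals of Hspb6, Hspb7, Cryab and Hspa12b was not tested.

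**Figure D3:**
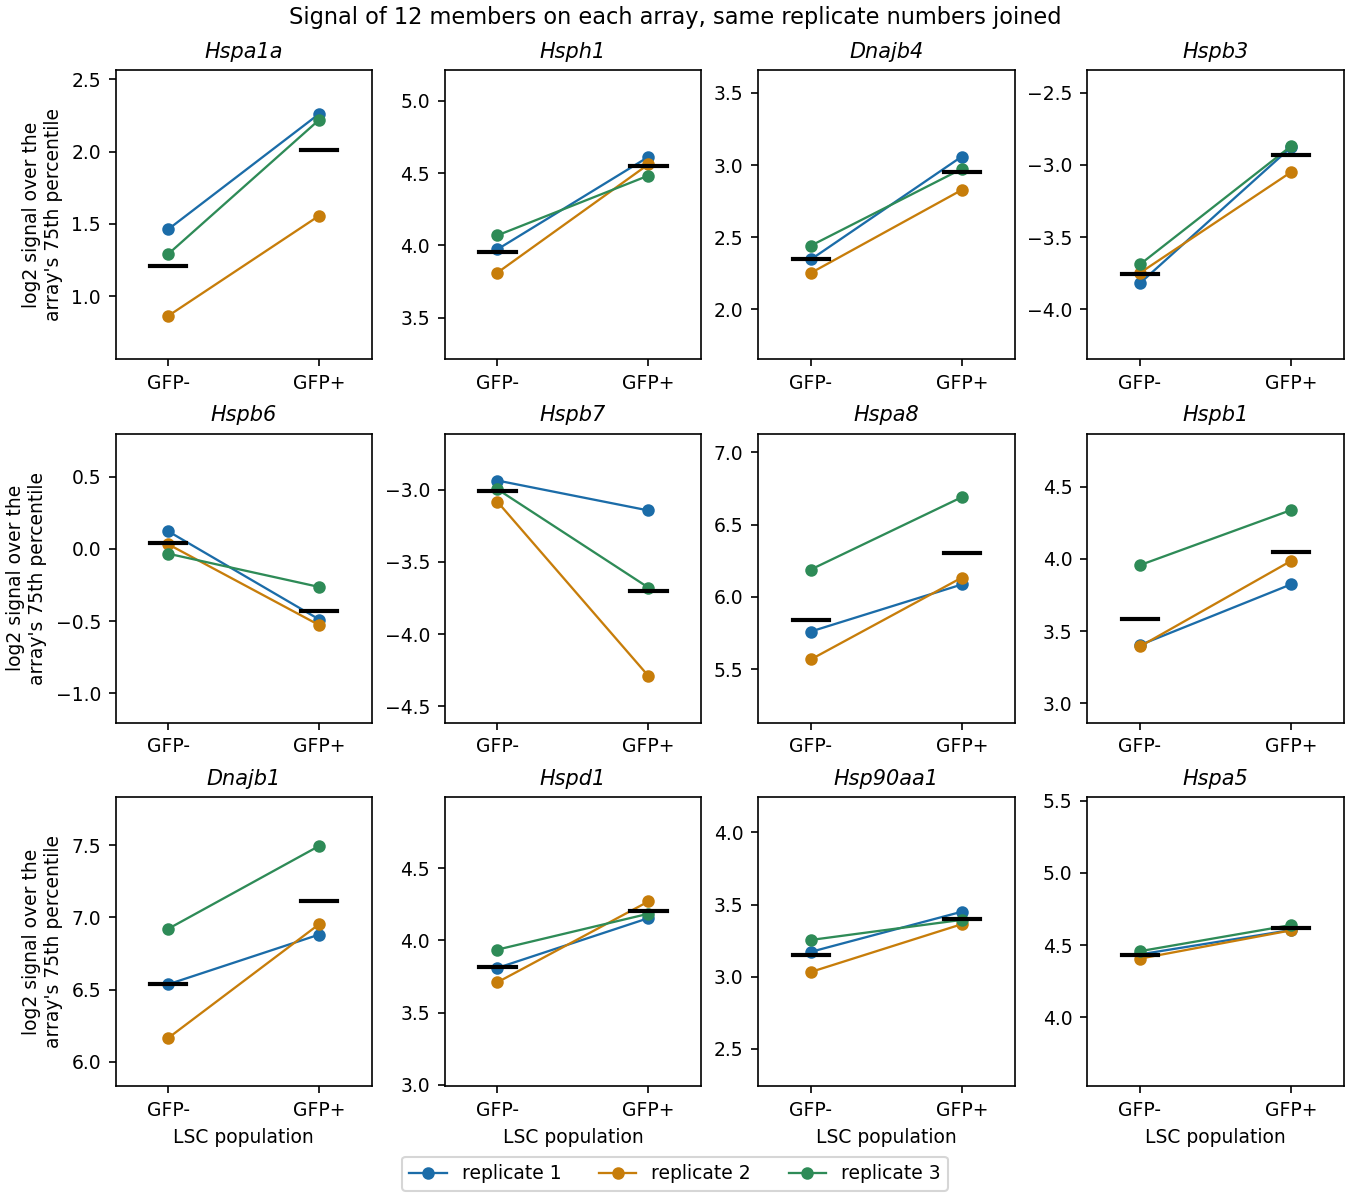
Level of 12 members in LSC GFP- (left of each panel) and LSC GFP+ cells (right), one point per array, with lines joining arrays of the same replicate number and black bars at the means; every vertical axis spans 2 log2 units. Lines rise in all 3 pairs for each gene but Hspb6 and Hspb7, where all 3 fall. For Hspa8, Hspb1 and Dnajb1 the line of replicate 3 lies above the others, which cross.

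Both subunits of the mitochondrial chaperonin were above 0 in all 3 pairs and neither passed. Hspd1 (Hsp60), the barrel, stood at 4.15, 4.27 and 4.18 in LSC GFP+ and 3.81, 3.71 and 3.94 in LSC GFP- replicates 1, 2 and 3, without overlap. The difference was 0.38 ± 0.18 (SE, n = 3 per population, adjusted p = 0.696). It passed the unadjusted threshold in the blocked fit (adjusted p = 0.312) and by the methods' t-test. It also passed with normexp background correction and with an intensity trend in limma's test. Hspe1 (Hsp10), the lid, differed by 0.26, and by 0.15 and 0.25 at its other probes. Counting Hspa9 and the mitochondrial DnaJ protein Dnaja3 with them, the 4 mitochondrial members had a median difference of 0.30. It was 0.19 without LSC GFP- replicate 2, 0.18 without LSC GFP+ replicate 3 and 0.42 without LSC GFP- replicate 3.

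Among the 12 DnaJ genes, all of them compared, 10 were above 0 and the median difference was 0.15. That median rested on single arrays: it was 0.27 without LSC GFP+ replicate 1, 0.26 without LSC GFP- replicate 3, 0.086 without LSC GFP- replicate 1 and 0.087 without LSC GFP+ replicate 3, and 0.05 when the probes of a gene were averaged. Dnajb4 (Hlj1), a cytosolic partner of HSP70, stood at 3.06, 2.83 and 2.97 in LSC GFP+ and 2.35, 2.25 and 2.44 in LSC GFP- replicates 1, 2 and 3. The gap between the populations exceeded the spread within each. The signal was 1.52-fold higher in LSC GFP+ cells (difference 0.61 ± 0.18, SE, n = 3 per population, adjusted p = 0.355), and it passed under all 17 alternatives. Dnajb1 (Hsp40), the main heat-inducible DnaJ protein, stood at 6.88, 6.95 and 7.50 and at 6.54, 6.17 and 6.92. LSC GFP- replicate 3 was higher than LSC GFP+ replicate 1, so the populations overlapped, while the pairs differed by 0.34, 0.79 and 0.57. The difference was 0.57 ± 0.27 (SE, n = 3 per population, adjusted p = 0.702). It passed the unadjusted threshold in the blocked fit (adjusted p = 0.204) and without LSC GFP- replicate 3.

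The other DnaJ genes differed by -0.06 to 0.39. Dnajb9 (ERdj4) and Dnajc3 (p58IPK), both in the endoplasmic reticulum and induced by unfolded proteins there, differed by 0.39 (adjusted p = 0.796) and 0.31 (adjusted p = 0.870). Dnajb9 passed the unadjusted threshold without LSC GFP+ replicate 1. Dnajb11 (ERdj3), of the same compartment, differed by -0.06, and the 6 endoplasmic reticulum members together had a median difference of 0.13, which was 0.20 without LSC GFP+ replicate 1 and 0.078 without LSC GFP+ replicate 3. Dnaja1, Dnaja2, Dnaja4, Dnajb6 and Dnaja3 lay between 0.02 and 0.17, and Dnajb2 at -0.05. Dnajb5 differed by 0.39 at one probe and by -0.37 at the other, neither passing. In all, 13 members had several compared probes, and in 6 of them, Hspa4, Dnaja1, Dnaja2, Dnajb2, Dnajb5 and Dnajb6, the probes differed in sign.

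No BAG protein or HSP90 co-chaperone passed. Bag3, a heat-inducible exchange factor that links HSP70 to small heat-shock proteins and autophagy, stood at 1.26, 1.58 and 1.53 in LSC GFP+ and 1.29, 1.13 and 1.27 in LSC GFP- replicates 1, 2 and 3. LSC GFP- replicate 1 was slightly above LSC GFP+ replicate 1, and the difference was 0.23 ± 0.19 (SE, n = 3 per population, adjusted p = 0.966). Bag2 differed by 0.39 (adjusted p = 0.913). It passed the unadjusted threshold in the blocked fit (adjusted p = 0.326) and without LSC GFP- replicate 3. Stip1 (Hop), which hands proteins from HSP70 to HSP90, and Chordc1 differed by 0.23 and 0.20, and Bag1 by -0.04.

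The transcription factor Hsf1, which drives the heat-inducible genes and is itself controlled mainly at the protein, stood at 0.32, 0.72 and 0.66 in LSC GFP+ and -0.04, 0.03 and 0.35 in LSC GFP- replicates 1, 2 and 3. LSC GFP- replicate 3 was a little above LSC GFP+ replicate 1. The difference was 0.45 ± 0.21 (SE, n = 3 per population, adjusted p = 0.698). It passed the unadjusted threshold in the blocked fit (adjusted p = 0.275) and with normexp background correction. It also passed without LSC GFP+ replicate 1 and without LSC GFP- replicate 3. Hsf2 differed by 0.24, and its LSC GFP+ samples were spread from -0.80 to 0.17.

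Samples that share a replicate number had related levels. When the replicate number was added to limma's model as a block, 10 of 41 members (24.4%) were higher at an unadjusted p under 0.05, against 6.74% of all probes, and 3 (7.32%) were lower, against 8.05%. The higher members were Hspa1a, Hspa8, Hsph1, Hspb1, Hspb3, Hspd1, Dnajb1, Dnajb4, Bag2 and Hsf1, and the lower were Hspa12b, Hspb6 and Hspb7. LSC GFP+ was above LSC GFP- in all 3 pairs for 20 members (48.8%), against 21.4% of all probes, and below in all 3 for 4 members, Hspa12b, Hspb6, Hspb7 and Cryab (9.76%), against 17.1%. The 3 numbers did not stand at the same height. Replicate 3 was the highest of the 3 samples in both populations for 21 of 41 members (51.2%), against 28.4% of all probes, replicate 1 for 4 members (9.76%), against 16.4%, and replicate 2 for none, against 8.86%. The arrays numbered 3 lay in another row of the slide than the other 4, and what set them apart was not tested.

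The cytosolic heat-inducible genes form a group across these classes. Of 16 such members, 14 were compared and 13 were above 0, where 49.4% of all probes and 57.1% of bright probes were. Hspa1a, Hsph1 and Dnajb4, 3 of the 14, were higher in LSC GFP+ cells, against 3.37% of all probes. None was lower at its brightest probe, against 4.53%. Cryab was the member below 0, at -0.22, and its dimmer probe (difference -0.80) passed the unadjusted threshold in the lower direction. Without LSC GFP- replicate 2 only Dnajb4 passed, without LSC GFP- replicate 3 there were 6, and the blocked fit gave 6. The median difference was 0.36, with 0.21 without LSC GFP- replicate 2 and 0.51 without LSC GFP- replicate 3. Of the 34 compared members with a promoter window, 14 held a 2-unit heat-shock element, with differences from -0.47 to 0.82 and a median of 0.32, and 20 did not, with differences from -0.70 to 0.57 and a median of 0.17. The 4 members that were higher in LSC GFP+ cells each held one in at least 1 window, as did Hspb6 and 9 of the 28 that did not pass. Dnajb4 and Hspb6 have 2 windows and hold it in 1 of them.

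Immediate-early genes, such as those of the AP-1 and EGR transcription factors, stood higher in LSC GFP+ cells beside the heat-inducible members. Of 19 compared, 10 were higher and none lower, with a median difference of 0.61 and the smallest p for Nr4a1 (difference 1.34), Ier3 (difference 1.16) and Egr2. Their summed linear signal lay between 382 and 509 on LSC GFP+ arrays and between 221 and 331 on LSC GFP- arrays. Without LSC GFP- replicate 2 or LSC GFP+ replicate 3, 4 of them passed. Basal markers moved the same way. Of 13, 12 were compared, and Dsg3 had no compared probe. Of these 12, 8 were higher and none lower, with a median difference of 0.73. Their sums lay between 244 and 260 on LSC GFP+ arrays and between 181 and 192 on LSC GFP- arrays. Of 10 luminal markers 2 were higher and 1 lower, and the lower one missed the threshold when any array other than LSC GFP+ replicate 3 was left out. None of 8 compared leukocyte markers passed, and of 7 compared glial and neuronal markers none passed without the block and 5 were lower with it or without LSC GFP- replicate 2. The part of digestion and sorting, or of the share of basal cells, in the signals of the members was not tested.

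**Figure D4:**
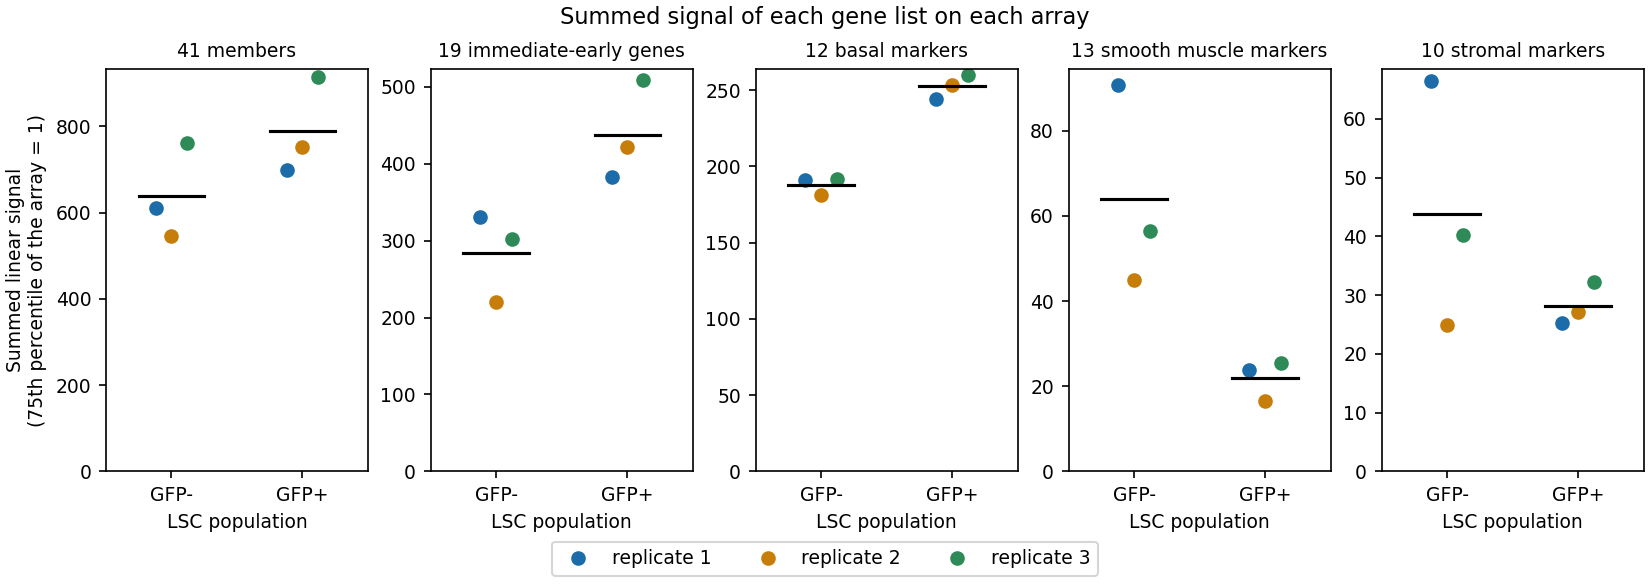
Summed linear signal of the 41 compared members, of immediate-early genes and of basal, smooth muscle and stromal markers on each array, in units of the array's 75th percentile, with LSC GFP- on the left and LSC GFP+ on the right of each panel; points are arrays, coloured by replicate number, bars are means, and every axis starts at 0. The sums of immediate-early genes and basal markers were higher on all LSC GFP+ arrays and that of smooth muscle markers was lower on all of them, whereas the sums of the members (699 to 914 against 546 to 761) and of stromal markers overlapped. Bright probes weigh most in a sum: Egr1 made up 35.4% of the immediate-early and Trp63 45.8% of the basal sum. Without Egr1 the immediate-early sums were 241 to 329 against 144 to 207. Without Trp63 the basal sums were 130 to 158 against 84.5 to 98.2.

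The rest of the chaperone network was taken from a list of 65 further genes, of which 62 were compared. None passed the unadjusted threshold in either direction in the main fit, and at most 1 did with an array left out. Under quantile normalization 1 was higher, as was 1 when the probes of a gene were averaged. In the blocked fit 5 were higher, 2 of them TRiC subunits, and by the methods' t-test 5 were higher and 1 lower. Of the 62, 49 were above 0, beside 33 of the 41 members and 49.4% of all probes, so the lean was not particular to the members. The median difference was 0.09, with 0.24 without LSC GFP+ replicate 1 or LSC GFP- replicate 3, 0.056 without LSC GFP- replicate 1, 0.034 without LSC GFP- replicate 2 and 0.015 without LSC GFP+ replicate 3. The cytosolic chaperonin TRiC, which folds actin and tubulin, had all 8 subunits above 0, between 0.23 and 0.45, with a median of 0.33 (0.20 without LSC GFP- replicate 2, 0.19 without LSC GFP+ replicate 3, 0.51 without LSC GFP- replicate 3). The smallest adjusted p, without the block, was 0.874, for Cct3 and Cct2. The 5 compared prefoldin subunits, which deliver proteins to TRiC, had a median of 0.02. The 22 further co-chaperones of HSP70 and HSP90 had a median of 0.10, and the smallest p was that of the cyclophilin Ppid (difference 0.43, adjusted p = 0.706). The 18 further genes of endoplasmic reticulum stress had a median of 0.09, with Atf4, the transcription factor of the integrated stress response, at 0.32 (adjusted p = 0.820). The 8 further mitochondrial chaperones and proteases had a median of 0.07. With 1 array left out, the medians of these 4 smaller lists lay between -0.20 for prefoldin without LSC GFP+ replicate 3 and 0.23 for prefoldin without LSC GFP- replicate 3, and those of prefoldin and of the mitochondrial and endoplasmic reticulum genes changed sign. A last list held 3 compared genes, Hsf4, Hsbp1 and the collagen chaperone Serpinh1, and only Serpinh1 was above 0, at 0.11.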

How the data were processed

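The 6 arrays were SurePrint G3 Mouse 8x60K arrays, hybridized with Cy3-labeled cDNA from amplified RNA. Per the file headers and the study's methods, Feature Extraction 11.0.1.1 gave each spot an intensity on the linear scale, with background subtracted, a spatial trend removed and substitute values on dim spots, and the arrays not normalized to each other (the submitters' processing notes name version 10.7.3.1). The deposited table of the whole series holds the same intensities, rounded, and served as an alternative. Positions of probes are those of mm9 in the array design.

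Here log2 intensities minus the array's 75th percentile were averaged over the spots of a probe, without the 123 to 154 spots per array marked as outliers. No spot was saturated, and 65.8% to 75.7% of the 55681 probes were well above background on an array. A probe entered the comparison if the software marked it above background on each of the 3 arrays of either population, and limma 3.58.1 (R 4.3.3) was run with lmFit and eBayes, two-sided, with Benjamini-Hochberg adjustment over all 37008; the fit was tested on simulated data. With 3 arrays per population an exact permutation p cannot fall below 0.1, and the number of arrays limits the precision. A gene was represented by its brightest compared probe. Probe accessions were matched to symbols in RefSeq tables (GRCm38.p6), and no probe named for a member belonged to another gene by accession.

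The methods name Student's t-test at p under 0.05 with no adjustment, so the methods' t-test was an alternative. The others were normexp background correction (offset 50), scaling by the array median, quantile normalization, 3 filters on dim probes, an intensity trend in eBayes, the replicate number as a block, other ways to combine probes, and each array left out. Replicate numbers come from the sample titles. Deviations from the population means correlated across probes at 0.43, 0.27 and 0.66 for equal numbers. For unequal numbers the correlations ran from -0.54 to 0.22, the highest for LSC GFP+ replicate 1 with LSC GFP- replicate 2. Equal numbers were treated as pairs in the blocked fit and in the counts by pair, not in the main fit. All arrays share 1 slide and scan, so neither could be compared.

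Values of all arrays are given for members past an unadjusted p of 0.05, for members without overlap and a difference of at least 0.5, and for 11 members set by name, of which Hspb1, Hspa5 and Bag3 are examples; of other lists at most the 3 genes with the smallest p are named, with Serpinh1, Atf4 and Vwf among them. The members and all gene lists were chosen with earlier results of these data known. Promoter windows are RefSeq's, searched on both strands.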

Additional observations from a re-analysis of the deposited data

How the results depend on the processing

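No member passed after adjustment in the main fit or under any alternative for which this was counted. It was not counted for the average over the probes of a gene. Over 696 values of single members under the alternatives, 625 kept their direction and their side of the threshold, 28 changed sign with neither value past it, 21 lost the call and 22 gained it, and none of the called members changed sign. Hspb3 and Dnajb4 passed under 17 of 17 alternatives, Hsph1 under 16, Hspa1a under 14, Hspb6 under 10 and Hspb7 under 6 of 16. The median difference over the members lay between 0.16 and 0.30.

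The 4 members higher in LSC GFP+ cells became 7 with normexp background correction, 7 with the methods' t-test and 10 with the replicate block, and 2 to 9 with 1 array left out, 2 without LSC GFP- replicate 2 and 9 without LSC GFP- replicate 3. The 2 lower members became 1 with normexp background correction, scaling by the array median, either stricter or looser filter (all 6 arrays, or at least 1), the methods' t-test and the intensity trend, 0 with no filter on dim probes, 3 with the replicate block, and 0 to 2 with 1 array left out. Under scaling by the array median the split of members was 4 higher to 1 lower, and of all probes 1469 to 1296 in place of 1248 to 1676; the tested probes then had a median of 0.065. Quantile normalization gave 1645 to 1592 probes and the replicate block 2493 to 2979. With 1 array left out, 875 to 1377 probes were higher and 1166 to 2793 lower, the last without LSC GFP+ replicate 1. After adjustment 1 probe passed, against 3 with scaling by the array median and with quantile normalization, 0 with normexp background correction, with the 3 other filters, the methods' t-test, the intensity trend and the replicate block, and 0 to 3 with 1 array left out. The median of the HSP110 genes was 0.20 in place of 0.40 once filters let Hspa4l in. That of the small heat-shock proteins was 0.12, and 0.46 on all 6 arrays, where Hspb7 drops out, -0.22 with no filter, where Hspb2 enters, and -0.03 to 0.26 with 1 array left out. Among further proteostasis genes, 5 were higher with the replicate block, 2 of them TRiC subunits. The cause of these shifts was not tested beyond the members that the filters add or remove.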
